A study of Mus musculus with 10 samples.

Results

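TRAJ15 is a joining (J) segment of the mouse T cell receptor (TCR) alpha locus, annotated by RefSeq on GRCm38.p6 as a J segment of 60 bases at chr14:54204422-54204481. An alpha chain is made when a variable (V) segment is joined to one of many J segments, with bases trimmed from both ends and others added between them. The joint encodes CDR3, the loop of the chain that lies over the peptide held by an MHC molecule. V sets the first residues of CDR3 and J the last, so the J segment can be recognised from the end of the loop, while the residues between them differ from clone to clone. Chains that need few added bases, and chains that several nucleotide sequences can encode, are known as those most often shared between animals.

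The TRAJ15 chains were chosen by their ending. Every entry whose CDR3 ended in the residues RALIF was taken, and the V and J names were not used, because the alpha chains in these tables are listed under beta chain names. Of the 9375 TRAJ15 entries, 9371 (99.96%) carried the name TRBJ1-1, a name that 40.2% of all alpha entries carried. The TRAJ15 entries were 9375 of the 387286 entries of the series. They made 5999 distinct CDR3 nucleotide sequences, called clonotypes here, of the 129528 found among alpha chains, and encoded 3189 of the 75320 distinct alpha CDR3 amino acid sequences. They held 23442 of the 482226 alpha counts. The segment was selected on results of these data, so its share of the repertoire is given as a description with no test. The residues before RALIF were not used in the choice. With them, the longer stretch QGGRALIF ended 2449 of the 3189 CDR3s (76.8%), and GGRALIF ended 3098 of them (97.1%).

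The libraries were made from total RNA of regulatory T (Treg) cells of the spleen, used directly after isolation and without treatment. The 5 CNS4KO samples came from mice deficient in CNS4, a Foxp3 enhancer, and the 5 CNS4Flox samples from mice in which this enhancer is floxed and which the labels also call WT. The age of the mice, the Cre line, the number of cells and whether each replicate was a separate mouse are not stated in the sources used here, so p-values measure only the spread between these samples. Only TCR transcripts were measured, so the Treg identity of the cells and the loss of the enhancer could not be checked.

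Depth per library was 61793 to 95853 counts over both chains and 40091 to 68224 alpha counts. TRAJ15 counts were 3409, 2386, 2034, 2139 and 2323 across CNS4KO replicates 1 to 5, and 2286, 2178, 2178, 1931 and 2578 across CNS4Flox replicates 1 to 5. Whether a count is a read or a molecule is not stated. The intervals below treat each count as an independent draw and cover counting error only. They are too narrow if counts are amplified reads, and they are given for clonotypes picked as the largest. A library pair stood apart, CNS4KO replicate 5 and CNS4Flox replicate 3. This pair held 8 TRAJ15 clonotypes with at least 10 counts in both libraries, against 1 to 7 in the other 44 pairs, and had the highest Morisita-Horn overlap, an abundance-weighted index that runs from 0 to 1 (0.380, against at most 0.261 in the other pairs). A clonotype of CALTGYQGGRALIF was found in these 2 libraries alone, at 14 and 55 counts. The 10 values tested by permutation between the groups and the calls of single loops were also computed without the pair. Those that moved by over 1.5 times or turned are given here or in the closing section. For the fit of J ends and the values given without a test this was not done.

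The TRAJ15 end was read backwards from the last base, taking each time the commonest next base among the clonotypes that matched so far. This gave 29 bases, which are shown because every measure of retained J bases below is counted against them. The bases furthest from the last one rest on fewer clonotypes, with base 29 found in 783 of the 1454 that matched up to it. In the clonotypes printed further on, capitals mark the unbroken part that matches this end. The reading frame ends in the codons for RALIF.
TRAJ15 end: CCTACCAGGGAGGCAGAGCTCTGATATTT

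The most abundant clonotype of each library is printed next, because these chains show the contrast between clonotypes with high counts in a single library and sequences that recur. They share the J end and differ in how far it was trimmed and in the bases before it.
CNS4KO replicate 1: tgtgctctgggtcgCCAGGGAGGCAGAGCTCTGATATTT
CNS4KO replicate 2: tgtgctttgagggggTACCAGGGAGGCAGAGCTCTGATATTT
CNS4KO replicate 3: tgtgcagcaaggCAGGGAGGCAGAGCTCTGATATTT
CNS4KO replicate 4: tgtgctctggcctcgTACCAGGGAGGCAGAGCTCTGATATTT
CNS4KO replicate 5: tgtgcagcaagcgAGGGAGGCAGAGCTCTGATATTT
CNS4Flox replicate 1: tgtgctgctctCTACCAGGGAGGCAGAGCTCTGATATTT
CNS4Flox replicate 2: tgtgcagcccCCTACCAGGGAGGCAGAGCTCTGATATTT
CNS4Flox replicate 3: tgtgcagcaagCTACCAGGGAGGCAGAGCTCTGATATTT
CNS4Flox replicate 4: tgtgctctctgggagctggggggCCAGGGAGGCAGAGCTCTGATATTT
CNS4Flox replicate 5: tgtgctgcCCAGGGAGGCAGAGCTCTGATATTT

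Of the largest TRAJ15 clonotypes of the 5 CNS4KO libraries, 3 were found in no other library, and the others had at most 3 counts elsewhere. In CNS4KO replicate 1 the clonotype of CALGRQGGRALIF held 343 counts, 10.1% of the TRAJ15 counts (95% Wilson interval 9.10 to 11.1), and was found in no other library. The clonotypes of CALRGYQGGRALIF in CNS4KO replicate 2 (118 counts, 4.95%, interval 4.15 to 5.89) and of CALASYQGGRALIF in CNS4KO replicate 4 (60 counts, 2.81%, interval 2.19 to 3.59) were likewise found nowhere else. The clonotype of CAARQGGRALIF in CNS4KO replicate 3 held 133 counts (6.54%, interval 5.54 to 7.70) and had 1 count in CNS4Flox replicate 3. That of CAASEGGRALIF in CNS4KO replicate 5 held 67 counts (2.88%, interval 2.28 to 3.65), with 1 and 3 counts in CNS4Flox replicates 4 and 5. The CDR3 amino acid sequences of these clonotypes were found in 5 to 9 libraries, more than the 1 to 3 libraries of their nucleotide sequences.

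Among CNS4Flox libraries the largest clonotypes included both kinds. CNS4Flox replicate 4 had the only largest clonotype whose CDR3, of 16 residues, was found in a single library, at 149 counts (7.72%, interval 6.61 to 8.99). CNS4Flox replicate 2 held 173 counts of the clonotype of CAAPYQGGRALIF (7.94%, interval 6.88 to 9.15), which had 8 counts in CNS4Flox replicate 4. The clonotype of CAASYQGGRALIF in CNS4Flox replicate 3 held 107 counts (4.91%, interval 4.08 to 5.90) and was found in 8 other libraries at 2 to 39 counts, the 39 in CNS4KO replicate 5. Those of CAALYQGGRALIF in CNS4Flox replicate 1 (29 counts, 1.27%, interval 0.885 to 1.82) and of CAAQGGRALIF in CNS4Flox replicate 5 (77 counts, 2.99%, interval 2.40 to 3.72) were found in 3 and 5 other libraries. The largest clonotype held a mean of 5.45% ± 3.01 of TRAJ15 counts in CNS4KO libraries and 4.97% ± 2.92 in CNS4Flox libraries (SD, n = 5 per group), with ranges of 2.81% to 10.1% and 1.27% to 7.94% that overlap.

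**Figure D1:**
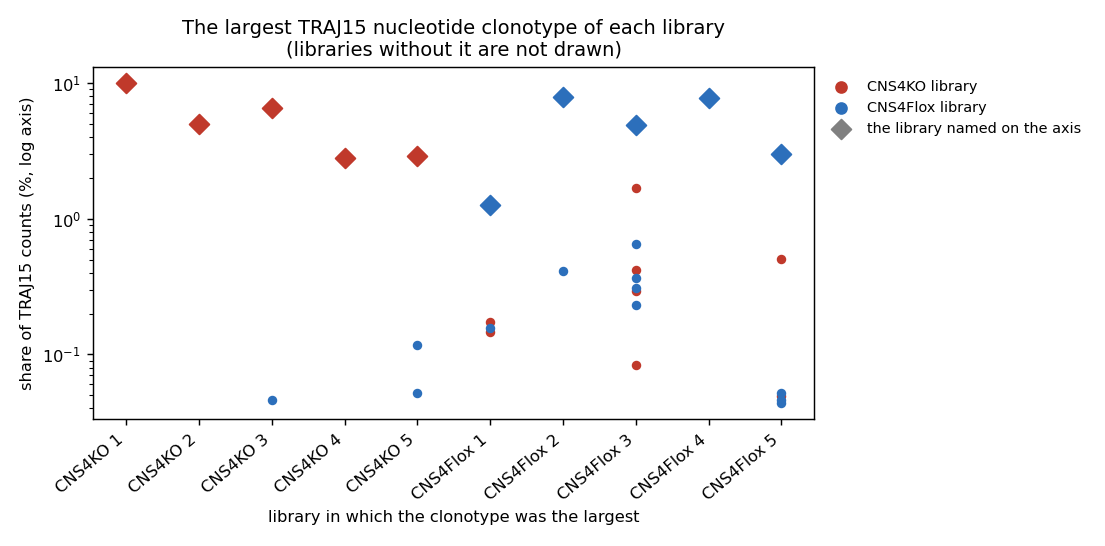
Share of TRAJ15 counts (percent, log axis) of the most abundant TRAJ15 nucleotide clonotype of each library, named on the horizontal axis; diamonds give that library, small points the other libraries that held the clonotype, and red and blue the CNS4KO and CNS4Flox libraries. The clonotypes of CNS4KO replicates 1, 2 and 4 and of CNS4Flox replicate 4 have no other point, whereas that of CNS4Flox replicate 3 has 8.

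TRAJ15 made up about the same part of the alpha repertoire in both groups. Its share of alpha counts was 4.997%, 4.77%, 4.29%, 5.34% and 4.21% across CNS4KO replicates 1 to 5, and 5.24%, 5.35%, 4.70%, 4.76% and 5.15% across CNS4Flox replicates 1 to 5. The means were 4.72% ± 0.474 in CNS4KO and 5.04% ± 0.292 in CNS4Flox (SD, n = 5 per group), and the groups overlap, with the lowest and the second highest library both in CNS4KO. By distinct clonotypes the order of the means was the other way round, at 4.99% ± 0.344 in CNS4KO and 4.88% ± 0.224 in CNS4Flox (SD, n = 5 per group). Among the 31 TRAJ ends with enough counts, TRAJ15 ranked 8 by counts and 6 by distinct clonotypes. The ends were written from general knowledge and not checked against a reference. Shares and ranks therefore hold for the alpha chains recognised here.

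The segments that flank TRAJ15 on chromosome 14, from TRAJ11 to TRAJ18, were taken as its neighbours. Of the 6 listed neighbours 5 could be fitted, and TRAJ13 had too few counts for the fit. In edgeR's quasi-likelihood test on counts 0 of these 5 passed an adjusted p of 0.05, with 3 fitted higher and 2 lower in CNS4KO, and 0 were at an unadjusted p under 0.05. Over all TRAJ ends 0 of 31 passed in edgeR (0% called), 2 were at an unadjusted p under 0.05, and DESeq2 also called 0. TRAJ15 is among the 31, but its share was known when it was chosen, so its own result is not read as a test. The neighbours' log2 fold changes ran from -0.05 for TRAJ11 to 0.25 for TRAJ17. TRAJ18, known as the J segment of the invariant NKT cell alpha chain, had 0.09 (edgeR adjusted p = 0.851). The TRAJ ends whose share of distinct alpha clonotypes moved most like that of TRAJ15 over the 10 libraries were TRAJ22 (Pearson r = 0.76), TRAJ11 (r = 0.67) and TRAJ26 (r = 0.62), a description over shares of the same totals.

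CNS4KO libraries held fewer distinct TRAJ15 clonotypes than CNS4Flox libraries at equal counts, with no overlap between the groups. At 1931 TRAJ15 counts, the smallest total, CNS4KO replicates 1 to 5 held 647, 694, 724, 759 and 804 distinct clonotypes. CNS4Flox replicates 1 to 5 held 1080, 852, 873, 931 and 949. The highest CNS4KO library thus lay below the lowest CNS4Flox library. The means were 726 ± 60.4 and 937 ± 89.3 (SD, n = 5 per group), a ratio of 0.775, and the difference was -211 (SE 48.2). The two-sided exact permutation p was 0.00794, the smallest that this design allows, and the adjusted p over the 10 values tested was 0.0794, above the threshold of 0.05. Without clonotypes of count 1 the difference was -30.6 (exact permutation p = 0.310), a setting that removes unequal shares of the groups.

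The same direction was found for the other J segments, and TRAJ15 lay within their range. The ratio of CNS4KO to CNS4Flox distinct clonotypes at equal counts was below 1 for all 30 TRAJ ends with enough counts, from 0.671 to 0.856 with a median of 0.746, and TRAJ15 had place 21 from the lowest. These ratios were taken at a different depth for each segment.

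Clonotypes seen with 1 count were 57.1% ± 3.69 of the TRAJ15 clonotypes of CNS4KO libraries and 64.2% ± 2.18 of those of CNS4Flox libraries (SD, n = 5 per group). A clonotype held 3.83, 3.01, 2.73, 2.66 and 2.58 counts on average across CNS4KO replicates 1 to 5, and 1.90, 2.36, 2.31, 2.07 and 2.26 across CNS4Flox replicates 1 to 5. Every CNS4KO library lay above every CNS4Flox library on this measure, which follows from the totals and numbers of clonotypes above and was not tested separately. The direction was not particular to TRAJ15. Over all alpha chains CNS4KO libraries had a mean of 52179 counts in 16666 clonotypes, and CNS4Flox libraries 44266 counts in 21002 clonotypes. The number of cells per library was not given, so fewer clones and fewer cells behind the same counts cannot be told apart.

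**Figure D2:**
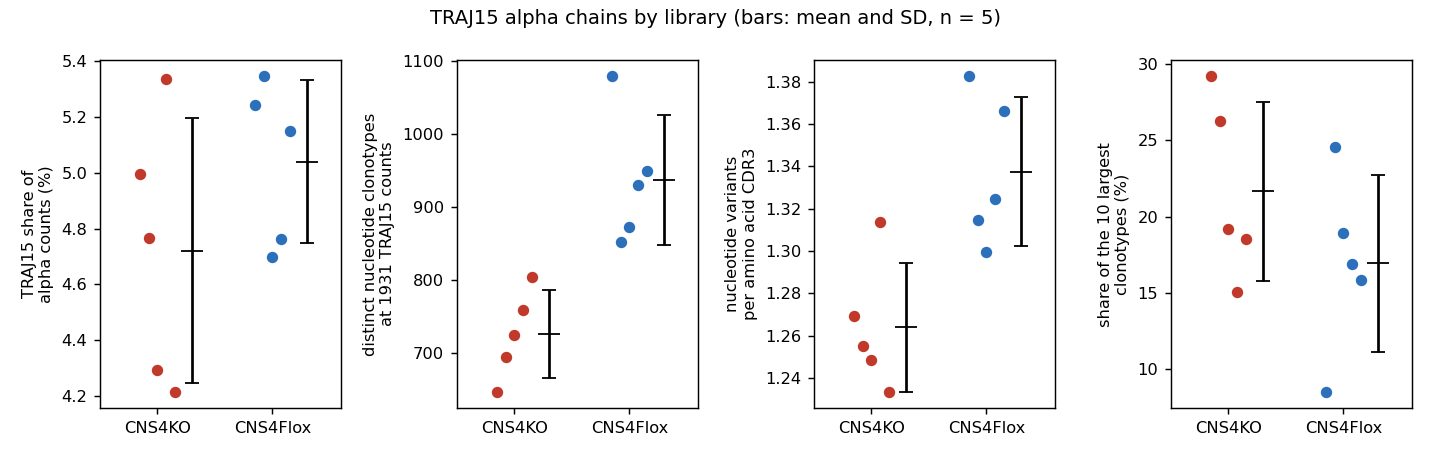
TRAJ15 values of the 10 libraries, each point being 1 library and each bar the mean and SD of a group (n = 5), for the share of alpha counts (percent), the distinct nucleotide clonotypes at 1931 TRAJ15 counts, the nucleotide variants per amino acid CDR3 at the same counts, and the share of the 10 largest clonotypes (percent). Only the distinct clonotypes separate the groups, at 647 to 804 in CNS4KO and 852 to 1080 in CNS4Flox; vertical axes do not start at 0.

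The 10 most abundant TRAJ15 clonotypes held 29.2%, 26.3%, 19.2%, 15.1% and 18.5% of TRAJ15 counts across CNS4KO replicates 1 to 5 at equal counts. Across CNS4Flox replicates 1 to 5 they held 8.51%, 24.5%, 18.96%, 16.9% and 15.8%. The groups overlap, and CNS4Flox replicate 1 is the lowest of all 10 libraries. The means were 21.6% ± 5.86 and 16.9% ± 5.80 (SD, n = 5 per group), and the difference of 4.70 percentage points (SE 3.69) did not pass (exact permutation p = 0.214, adjusted p = 0.536).

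TRAJ15 loops had a narrow range of lengths that did not differ detectably between the groups. The median length, counted from the first cysteine to the last phenylalanine, was 13 residues in every library, and the whole range was 7 to 18. Loops of 14 residues made up 35.5% of distinct clonotypes and loops of 13 residues 32.7%, followed by 12 (16.4%) and 15 (10.2%). The mean was 13.36 ± 0.0502 residues in CNS4KO and 13.35 ± 0.0349 in CNS4Flox (SD, n = 5 per group), a difference of 0.0179 (SE 0.0273, exact permutation p = 0.548, adjusted p = 0.782). By library the means were 13.30 to 13.44 in CNS4KO and 13.30 to 13.38 in CNS4Flox.

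Compared with all other alpha chains of the same library, TRAJ15 loops were shorter on average. The mean over the 10 libraries was 13.36 for TRAJ15 and 13.59 for the other chains, a difference of -0.234 residues (SD 0.0426) that ran from -0.290 to -0.167 and was negative in 10 of 10 libraries. An exact sign-flip permutation test over libraries, added after the data were seen, gave p = 0.00195, the smallest it allows, with 0.00342 as the adjusted p over 7 values. The difference lay mostly in the long loops, with 15.7% of other alpha clonotypes at 15 residues and 5.92% at 16, against 10.2% and 1.31% for TRAJ15. Short loops were also fewer, at 3.21% for TRAJ15 against 4.42% at 11 residues. The choice required RALIF, while other chains needed only the last 4 residues of a J end, and the part of this was not tested.

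**Figure D3:**
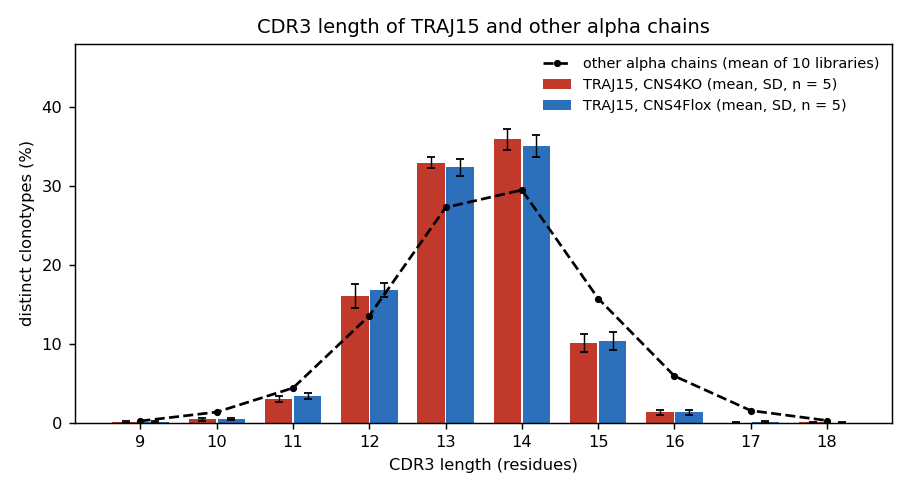
Percent of distinct clonotypes by CDR3 length in residues, with red and blue bars for TRAJ15 in CNS4KO and CNS4Flox (mean and SD, n = 5 each) and a dashed line for the other alpha chains (mean of 10 libraries). TRAJ15 exceeds the other chains at 13 residues (32.7% against 27.3%) and 14 residues (35.5% against 29.5%) and lies below them from 15 on. It also lies below them at 9 to 11 residues.

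The starts of the loops, which come from the V segment, were few. Of 48 different first 3 residues, CAL, CAA, CAV, CAM and CAT opened 91.1% of TRAJ15 clonotypes. CAL opened 30.4%, 31.1%, 31.6%, 32.5% and 30.6% across CNS4KO replicates 1 to 5, and 30.3%, 30.4%, 31.2%, 29.4% and 29.4% across CNS4Flox replicates 1 to 5. The means were 31.3% ± 0.873 and 30.2% ± 0.769 (SD, n = 5 per group), a difference of 1.08 percentage points (SE 0.520) that did not pass (exact permutation p = 0.0714, adjusted p = 0.238). CAA opened 28.9% ± 1.82 in CNS4KO and 29.4% ± 2.08 in CNS4Flox (SD, n = 5 per group; exact permutation p = 0.706, adjusted p = 0.883). Weighted by counts the CAL difference was 5.69 points (exact permutation p = 0.119, adjusted p = 0.397) and the CAA difference -6.45 (exact permutation p = 0.0714, adjusted p = 0.179). CAV opened 19.0% ± 1.30 and 18.9% ± 0.593 (SD, n = 5 per group; exact permutation p = 0.889, adjusted p = 0.913). CAM and CAT opened 7.68% and 4.63% on average over the 10 libraries.

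Against the other alpha chains of the same library, CAV was more frequent among distinct TRAJ15 clonotypes by 1.98 percentage points (SD 0.993) and CAT by 1.06 (SD 0.640), each in 10 of 10 libraries (exact sign-flip permutation p = 0.00195, adjusted p = 0.00342). Weighted by counts both turned, to -1.46 for CAV and -0.0537 for CAT. CAA differed by 0.622 and CAL by -0.0567 (adjusted exact p = 0.428 and 0.854), and CAM by -0.531 (adjusted exact p = 0.0574). At the nucleotide level, CAL chains opened mostly with tgtgctct, found in 1152 of all 5999 TRAJ15 clonotypes, while tgtgcagc and tgtgctgc, both reading into CAA, opened 977 and 605.

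Most of the chosen TRAJ15 clonotypes kept most of the J end. The unbroken match to the 29-base end was 25 bases at the median and the mode, with a mean of 25.4 over the 5999 clonotypes. In 783 of them (13.1%) all 29 bases were kept, and 96.3% kept at least 22. At least 15 bases were kept by 99.8%, which the choice by RALIF nearly fixed. Chains trimmed into RALIF could not enter, so these values describe the chosen set only. The mean per library was 25.63 ± 0.164 in CNS4KO and 25.64 ± 0.0666 in CNS4Flox (SD, n = 5 per group), a difference of -0.00894 (SE 0.0793, exact permutation p = 0.913, adjusted p = 0.913). Bases next to the break can match by chance, which lengthens the match, and a changed base inside the J end cuts it short, so the values approximate the germline bases kept. Weighted by counts the difference was -0.199 bases (exact permutation p = 0.0714, adjusted p = 0.179), and without the pair it was 0.0601.

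Most TRAJ15 loops were found in no more than 2 libraries, yet a small set of shared loops held much of the counts. Of the 3189 CDR3s, 2401 (75.3%) were found in 1 or 2 libraries, 638 (20.0%) in 3 to 7, and 150 (4.70%) in 8 to 10. Of these, 1941 were found in 1 library and 56 in all 10. At the nucleotide level 4488 of 5999 clonotypes were found in 1 library and 7 in all 10.

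The 150 loops found in at least 8 libraries held 36.7%, 40.8%, 45.3%, 44.9% and 34.9% of TRAJ15 counts across CNS4KO replicates 1 to 5. They held 42.9%, 49.0%, 45.1%, 40.7% and 39.4% across CNS4Flox replicates 1 to 5. The groups overlap, with means of 40.5% ± 4.71 and 43.4% ± 3.82 (SD, n = 5 per group) and a difference of -2.90 percentage points (SE 2.71, exact permutation p = 0.302, adjusted p = 0.603). Its size rests on single libraries, at -0.434 without CNS4KO replicate 1, -0.394 without CNS4KO replicate 5, -0.708 without CNS4Flox replicate 2, -1.54 without CNS4Flox replicate 3 and -0.461 without the pair. Against the other alpha chains, TRAJ15 had the larger share in widely shared loops, at 41.96% against 35.5% of counts, a difference of 6.42 percentage points (SD 3.36) that was positive in 10 of 10 libraries (exact sign-flip permutation p = 0.00195, adjusted p = 0.00342). The difference ran from 0.660 to 13.6 points, and without clonotypes of count 1 its mean was 3.94 points (exact sign-flip permutation p = 0.0176, unadjusted).

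The shared loops also differed from those of 1 or 2 libraries in features that did not enter the sharing count. Their mean length was 13.16 residues, against 13.30 in the loops of 3 to 7 libraries and 13.75 in those of 1 or 2. Their clonotypes kept 26.04 bases of the J end on average, against 25.5 and 25.1. In protein terms QGGRALIF ended 143 of the 150 (95.3%), 516 of 638 (80.9%) and 1790 of 2401 (74.6%) in the same order. CAA opened 35.3% of the shared loops and 22.5% of those in 1 or 2 libraries. These are descriptions of loops that share libraries and were not tested. Loops of 1 or 2 libraries may have been missed elsewhere at this depth. Changed bases in the J end shorten the match, and their part in these differences was not tested.

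**Figure D4:**
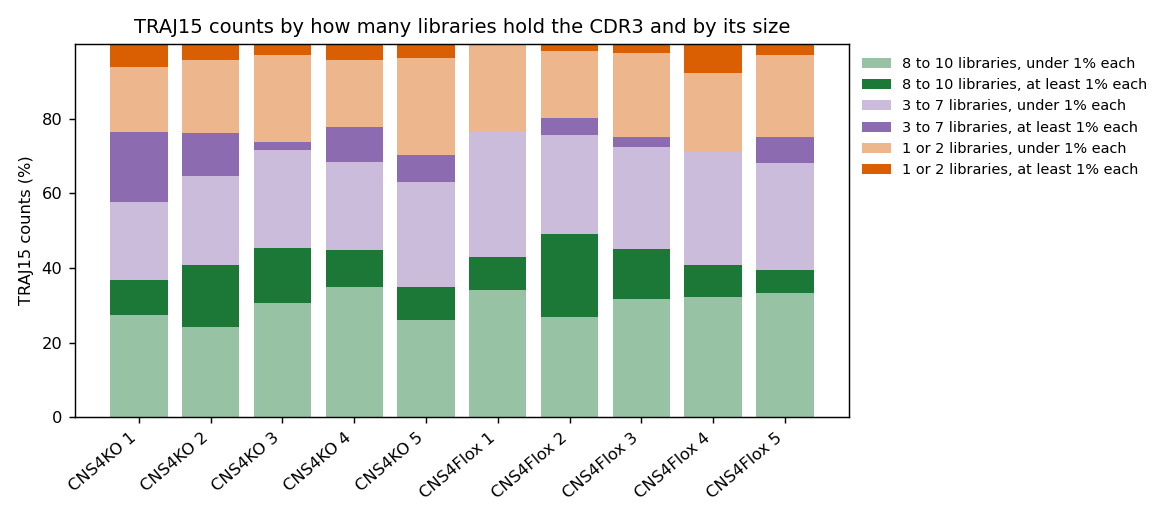
Percent of TRAJ15 counts in each library by the number of libraries that hold the CDR3 (green 8 to 10, purple 3 to 7, orange 1 or 2), dark where a CDR3 held at least 1% of the library's TRAJ15 counts and pale where it held less. Loops of 8 to 10 libraries hold 34.9% to 49.0% of the counts, and the dark orange part, expanded loops of 1 or 2 libraries, runs from 0 in CNS4Flox replicate 1 to 7.72% in CNS4Flox replicate 4.

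The most abundant shared loops had the form CAAS, a single variable residue and QGGRALIF. They were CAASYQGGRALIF (1.66% of TRAJ15 counts on average), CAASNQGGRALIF (1.11%), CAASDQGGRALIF (0.962%), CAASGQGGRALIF (0.938%) and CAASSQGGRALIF (0.924%), each found in all 10 libraries. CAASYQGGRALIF had 13, 13, 17, 29 and 46 counts across CNS4KO replicates 1 to 5, and 40, 24, 119, 49 and 17 across CNS4Flox replicates 1 to 5. Its highest values lay in CNS4Flox replicate 3 and, within CNS4KO, in replicate 5, the pair that stood apart. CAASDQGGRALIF and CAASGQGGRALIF were highest in CNS4KO replicate 1, at 71 and 62 counts, and ran from 9 to 29 and from 11 to 36 in the other libraries. That library also had the most TRAJ15 counts, 3409 against at most 2578 in the others, so raw counts overstate the gap. As shares of TRAJ15 counts the 2 loops held 2.08% and 1.82% there.

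Loops found in more libraries were encoded by more nucleotide sequences. Over all libraries 2117 of the 3189 CDR3s (66.4%) had a single nucleotide sequence and 231 had 5 or more. The mean number was 1.16 for loops of 1 or 2 libraries, 3.21 for those of 3 to 7 and 7.76 for those of 8 to 10, and it rose from 1.011 in loops of 1 library to 9.48 in loops of all 10. A loop seen in more libraries had more chances to be seen with another sequence, so this relation is partly built into the count.

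The loop with the most sequences was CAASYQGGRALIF, with 26, of which 11 were found in 1 library and 4 in at least 5. The 6 that were found in at least 4 libraries are shown because they make the same 13 residues in different ways.
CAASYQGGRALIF in 9 libraries: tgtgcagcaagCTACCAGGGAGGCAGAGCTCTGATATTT
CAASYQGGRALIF in 8 libraries: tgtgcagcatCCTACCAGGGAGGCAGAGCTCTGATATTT
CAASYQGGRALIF in 7 libraries: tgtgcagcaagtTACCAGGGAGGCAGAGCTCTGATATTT
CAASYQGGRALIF in 6 libraries: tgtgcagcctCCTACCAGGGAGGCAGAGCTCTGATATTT
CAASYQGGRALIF in 4 libraries: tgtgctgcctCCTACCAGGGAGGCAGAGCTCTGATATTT
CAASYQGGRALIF also in 4 libraries: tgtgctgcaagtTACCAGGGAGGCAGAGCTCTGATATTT

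These sequences differ in the codon for serine, which lies at the joint, and in the codons for the 2 alanines, so that they open with either tgtgcagc or tgtgctgc. Of the 26 sequences, 14 opened with tgtgcagc and 10 with tgtgctgc. The whole 29-base J end was kept in 10, 28 bases in 5 and 27 bases in 10, and the 1 that remained carried a changed base inside the J end, at 1 count. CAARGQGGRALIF followed with 21 sequences, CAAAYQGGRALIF with 16, and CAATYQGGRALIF and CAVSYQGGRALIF with 15 each.

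**Figure D5:**
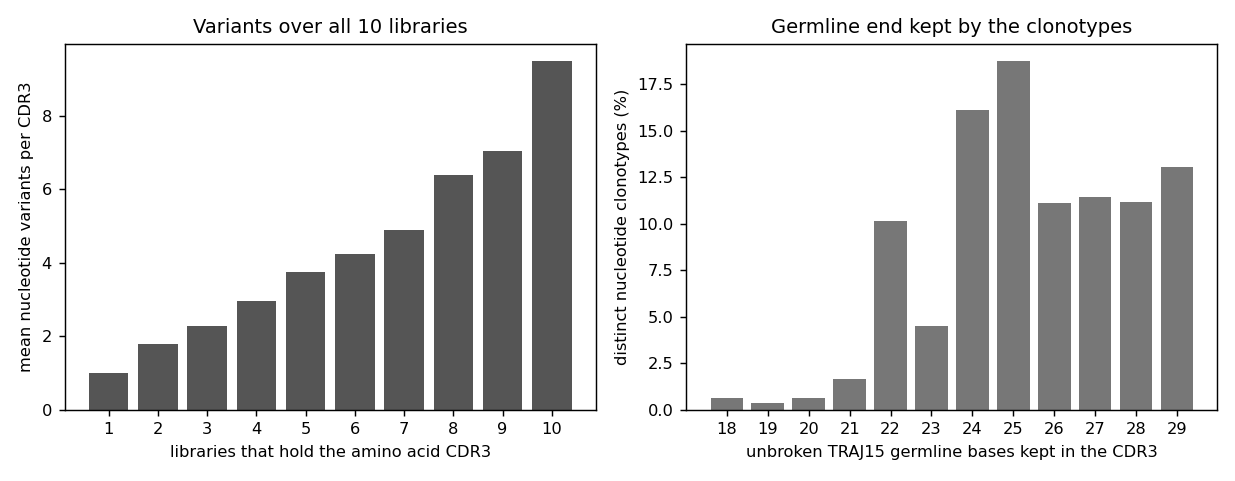
Left, mean number of nucleotide sequences per TRAJ15 CDR3 amino acid sequence against the number of libraries that hold it, which rises from 1.011 at 1 library to 9.48 at 10. Right, percent of the 5999 TRAJ15 clonotypes by the number of unbroken J-end bases kept (18 to 29 drawn), highest at 25 and with 13.1% at the full 29.

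Within a library the number of nucleotide variants per loop was lower in CNS4KO, though not past the threshold after adjustment. At equal counts it was 1.27, 1.26, 1.25, 1.31 and 1.23 across CNS4KO replicates 1 to 5, and 1.38, 1.31, 1.30, 1.32 and 1.37 across CNS4Flox replicates 1 to 5. Of the CNS4KO libraries only replicate 4 lay within the CNS4Flox range. The means were 1.26 ± 0.0306 and 1.34 ± 0.0354 (SD, n = 5 per group), a difference of -0.0736 (SE 0.0209, exact permutation p = 0.0159, adjusted p = 0.0794). Without clonotypes of count 1, and without thinning, the difference was -0.0158 (exact permutation p = 0.603). Without CNS4KO replicate 4 it was -0.0860 and passed (exact permutation p = 0.00794, adjusted p = 0.0397). This value moves with the number of distinct clonotypes, which also was lower in CNS4KO, and its part in the difference was not tested. Clonotypes that lay 1 base from one with at least 10 times their count, where sequencing errors would lie, were 1.38% to 3.60% of the clonotypes of a library.

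Clones that held at least 1% of a library's TRAJ15 counts were more numerous in CNS4KO libraries. They numbered 11, 14, 8, 12 and 10 across CNS4KO replicates 1 to 5, and 4, 5, 7, 4 and 8 across CNS4Flox replicates 1 to 5, so that the groups touch at 8. Of the 55 such cases in CNS4KO, 24 concerned clonotypes found in 1 library, and of the 28 in CNS4Flox, 6 did. Of all 5999 TRAJ15 clonotypes, 4488 were found in 1 library. Clonotypes of at least 1% found in 1 library alone held 23.2%, 14.5%, 6.10%, 10.4% and 3.75% of TRAJ15 counts across CNS4KO replicates 1 to 5. Across CNS4Flox replicates 1 to 5 they held 0%, 8.40%, 0%, 7.72% and 5.004%. These numbers were not tested, and those of other J segments are not given here.

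By amino acid sequence, most expanded loops were shared ones. Of 101 cases in which a loop held at least 1% of a library's TRAJ15 counts, 60 concerned loops of 8 to 10 libraries, 24 loops of 3 to 7, and 17 loops of 1 or 2. Expanded loops of 1 or 2 libraries held 6.13%, 4.27%, 2.90%, 4.16% and 3.75% of TRAJ15 counts across CNS4KO replicates 1 to 5. They held 0%, 1.88%, 2.53%, 7.72% and 2.87% across CNS4Flox replicates 1 to 5. The means were 4.24% ± 1.19 and 2.999% ± 2.86 (SD, n = 5 per group), and the difference of 1.24 percentage points (SE 1.38) did not pass (exact permutation p = 0.365, adjusted p = 0.608). The highest value, in CNS4Flox replicate 4, is the clonotype of 16 residues printed above, and without that library the difference was 3.45 points (exact permutation p = 0.0159, adjusted p = 0.0794).

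Among single loops, edgeR's quasi-likelihood test over alpha CDR3s found in at least 5 libraries called 1 TRAJ15 loop higher and 2 lower in CNS4KO of 403 tested. Over all 7176 alpha loops it called 5 higher (0.0697%) and 4 lower (0.0557%), so few alpha loops passed. Called loops in both directions were 0.744% of the TRAJ15 loops tested and 0.125% of all alpha loops tested, a difference that rests on few calls and was not tested. Tested on simulated data, in which only loops of higher mean count were changed, this fit found most 100-fold changes and missed most 8-fold ones. Recovery for rarer loops was not measured. A loop without a call is therefore not shown to be alike in both groups. The median log2 fold change was -0.27 over the TRAJ15 loops and -0.32 over all alpha loops tested. The other 2786 TRAJ15 loops were found in fewer libraries and did not enter the test.

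Each of the 3 called loops rested on a single library. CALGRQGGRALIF had 343, 0, 2, 5 and 1 counts across CNS4KO replicates 1 to 5 and 0, 0, 0, 1 and 0 across CNS4Flox replicates 1 to 5. Its log2 fold change was 7.19 (SE 1.39, edgeR adjusted p = 0.0105), and without CNS4KO replicate 1 it was 2.68 (edgeR adjusted p = 0.535). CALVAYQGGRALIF had 0, 2, 1, 0 and 1 counts in CNS4KO and 2, 142, 2, 3 and 1 in CNS4Flox, in replicate order. Its log2 fold change was -5.33 (SE 1.19, edgeR adjusted p = 0.0353), and without CNS4Flox replicate 2 it was -1.39 (edgeR adjusted p = 0.847).

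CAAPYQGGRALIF, the loop of the largest clonotype of CNS4Flox replicate 2, had 4, 1, 1, 1 and 2 counts in CNS4KO and 3, 175, 1, 10 and 3 in CNS4Flox, in replicate order. Its log2 fold change was -4.73 (SE 1.09, edgeR adjusted p = 0.0433). Without CNS4Flox replicate 2 it was -1.51 (edgeR adjusted p = 0.803), and without CNS4KO replicate 2 the edgeR adjusted p was 0.0612. With TMM scaling edgeR called 1 TRAJ15 loop higher, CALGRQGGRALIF, and 0 lower, against 3 higher (0.0418%) and 0 lower (0%) over all 7176 alpha loops. DESeq2 called 1 TRAJ15 loop higher and 0 lower. Over the 1392 alpha loops with a DESeq2 adjusted p it called 9 higher (0.647%) and 3 lower (0.216%). The TRAJ15 loop was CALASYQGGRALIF, with 0, 19, 1, 60 and 3 counts in CNS4KO and 1, 0, 0, 1 and 1 in CNS4Flox in replicate order. For this loop the DESeq2 log2 fold change was 4.96 (DESeq2 adjusted p = 0.0448) and the edgeR adjusted p 0.0724. DESeq2 gave no adjusted p for 309 of the 403 loops, the 3 called by edgeR among them.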

How the data were processed

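Each deposited table lists the clonotypes of 1 library of splenic Treg TCR transcripts, 10 in all. Per the labels' protocols, cDNA was primed on both TCR chains with a template switch adapter, amplified in PCR steps and sequenced. Per the file headers, each deposited count is a whole number. The deposited fraction, per the file headers the frequency of each clonotype, was not used. The submitters' processing notes name mm10; aligner and clonotype caller: not given in the sources used here.

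Chains were set from the last 4 CDR3 residues against J ends written from general knowledge, and TRAJ15 from RALIF; entries of 1 nucleotide sequence were merged within a library. The alpha chains so found carry beta V and J names in the tables, which were not used. Values of distinct clonotypes, variants and the 10 most abundant were brought to 1931 counts (rarefied expectation or 20 draws). Groups were compared by two-sided exact permutation tests with Benjamini-Hochberg adjustment over 10 values; with 10 values, a single complete separation gives 0.0794. Loops and J ends were tested with edgeR without TMM, library size being the alpha total, for loops in at least 5 libraries and ends with at least 10 counts in at least 5. Named loops are the 5 most abundant in at least 8 libraries, the largest clonotype per library, those called, and the 5 with most variants. The members and lists were chosen with earlier results of these data known. Replicate numbers follow sample order and pair nothing. Scripts were tested on simulated data. The edgeR step on single loops first failed its recovery requirement with 8-fold changes, of which it found a minority; the requirement was then set on 100-fold changes, which it met, so a loop that was not called may still differ. Alternatives covered weighting, clonotypes of count 1, thinning, merging of near sequences, carry-over, thresholds, TMM, DESeq2 and each library left out. Models were fitted with edgeR 4.0.16 and, as an alternative, DESeq2 1.42.0 in R 4.3.3. Other values came from Python 3.11.15 with scipy 1.17.1, pandas 2.3.3 and numpy 2.4.6, and figures from matplotlib 3.10.9.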

Additional observations from a re-analysis of the deposited data

How the results depend on the processing

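Of the values compared between the groups, the share of the 10 most abundant clonotypes (2.60 to 7.46 percentage points), the share opened by CAL (0.758 to 5.69) and the lower number of distinct clonotypes and of variants in CNS4KO kept their direction under every alternative run, but not their size. Without clonotypes of count 1 the difference fell from -211 to -30.6 for distinct clonotypes and from -0.0736 to -0.0158 for variants (exact permutation p = 0.310 and 0.603). The small differences turned under some settings. Weighted by counts the length difference was -0.0437 residues, and with the longer end GRALIF that of retained J bases was 0.00204. The share in widely shared loops was 1.38 points higher in CNS4KO by distinct clonotypes, the share in expanded loops of few libraries was -0.450 with a threshold of 2%, and the CAV share was -0.496 without clonotypes of count 1. With 1 library left out in turn, the difference ran from -0.00123 to 0.0334 for length, from -0.0542 to 0.0359 for retained bases, from -4.25 to -0.394 for the share in widely shared loops, from -0.997 to 0.311 for CAA and from -0.427 to 0.407 for CAV. It ran from -0.0860 to -0.0623 for variants per loop and from -232 to -176 for distinct clonotypes, and without CNS4KO replicate 4 both passed (distinct clonotypes -219.6, adjusted exact p = 0.0397), since CNS4KO replicate 4 alone overlapped in variants. Without the pair of CNS4KO replicate 5 and CNS4Flox replicate 3, an alternative chosen after seeing the data, distinct clonotypes differed by -247 (adjusted exact p = 0.143, with 4 libraries a group), retained bases by 0.0601, the share in widely shared loops by -0.461, length by 0.0290, and the shares of CAA and CAV by -0.226 and 0.212. Called TRAJ15 loops, with the called loops among all alpha chains, numbered 3 (all alpha 9) in the fit as reported, 1 (3) with TMM and 1 (12) with DESeq2. They numbered 5 of 788 (111 of 15164) among loops of at least 3 libraries and 6 (42) without the pair. With 1 library left out they numbered 1 to 7, namely 6 (54), 5 (49) and 7 (54) without CNS4KO replicates 3, 4 and 5 and 1 (11) without CNS4Flox replicate 2. TMM moved the median log2 fold change of all loops from -0.32 to -0.08. Called J ends numbered 1 by distinct clonotypes, TRAJ32 (log2 fold change 0.19, edgeR adjusted p = 0.0333). Against other alpha chains, weighting by counts gave 2.92 for CAL, -1.46 for CAV, 0.608 for CAM and -0.0537 for CAT, and without clonotypes of count 1 CAM was 0.243 and CAT 0.293 (exact permutation p = 0.273); the causes were not tested. No paired analysis was possible because the labels give no replicate numbers shared by the groups.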
